A study of Mus musculus with 2 samples.

Results

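Tox, Nr4a1, Nr4a2, Nr4a3, Batf, Prdm1, Id2, Eomes, Tbx21 and Bhlhe40 encode transcription factors tied to effector function and exhaustion in T cells. These 10 genes of the 32285 in the count matrices were chosen by symbol, and all 10 were found. Their transcripts were followed in immune cells taken from tumours that grew from MC38, a colon adenocarcinoma cell line of the mouse, by 10x droplet single-cell RNA sequencing. Cells came from mice on day 14 after inoculation, with no treatment, and the data hold 1 wild-type (WT) library and 1 Ifnar1-SA library. The second genotype is named for an allele of Ifnar1, whose protein is part of the receptor for type I interferons, and the meaning of SA is not spelled out in the labels. The sources used here give neither strain nor age nor the number of animals behind a library. The labels call the cells infiltrating immune cells in one field and CD8 T cells in another. Gene counts do not show the allele, so the genotypes were not checked.

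T cells that meet tumour antigen for long periods take on an exhausted state, in which inhibitory receptors such as PD-1 stay on and effector output is limited. TOX, a high mobility group box protein, sets up and maintains that state. The NR4A orphan nuclear receptors are switched on quickly by T cell receptor signals and work beside it. T-bet (Tbx21) and Eomes are T-box factors that drive cytotoxic and memory programmes. BATF is an AP-1 factor, Blimp-1 (Prdm1) a repressor that drives terminal differentiation, ID2 an inhibitor of E proteins, and BHLHE40 a factor for cytokine production and residency in tissue. Several of them, BATF, Blimp-1 and ID2 among these, also act in effector regulatory T cells.

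Cells were gated on their own transcripts. A CD8 T cell carried at least 2 UMIs (unique molecular identifiers, 1 per captured transcript) of Cd3e, Cd3g and Trac together and at least 2 of Cd8a and Cd8b1. Regulatory T cells (Treg) met the same T cell rule with at least 1 Foxp3 UMI. Other T cells met it with no Cd8a, Cd8b1 or Foxp3 UMI. The CD8 T gate held 1155 cells in WT (median 6663 UMIs) and 883 in Ifnar1-SA (median 6083). The Treg gate held 457 and 751 cells, with medians of 7182 and 7252 UMIs. Other T cells numbered 473 and 805, with medians of 4377 and 5305 UMIs, and summed Cd4 reached 139 and 98.7 CPM there. Both the CD8 T and the Treg rule were met by 31 WT and 45 Ifnar1-SA cells, which were counted in each. A further 92 and 81 T cells with a single Cd8a or Cd8b1 UMI and no Foxp3 fell in no gate. Outside the genes of the rule, Cd4 was 7.09 and 8.61 CPM in CD8 T cells and 94.5 and 86.7 in Treg.

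The libraries held 55497066 and 62732220 UMIs, 4058 WT and 5001 Ifnar1-SA cells passed the filters, and 7 of the kept barcodes were present in both libraries. All 6 monocyte/macrophage markers were detected in T cells, at 7938 and 11036 summed CPM in CD8 T cells, 11017 and 15511 in Treg and 19726 and 25035 in other T cells. At least 5 UMIs of these markers were carried by 20.9% of WT and 28.7% of Ifnar1-SA CD8 T cells, 31.5% and 43.1% of Treg and 33.6% and 49.4% of other T cells. In CD8 T cells the 3 mast cell markers summed to 53.1 CPM in WT and 0.257 in Ifnar1-SA, where Cpa3 was at 0, and the 3 fibroblast markers to 127 and 35.6. The 4 gamma-delta T cell markers summed to 24.7 and 9.51 CPM, and the 2 NK markers to 0.933 and 1.03, with Ncr1 at 0 in Ifnar1-SA. The libraries also differed in sex-linked transcripts: Xist without Y-linked UMIs was found in 1121 of the WT CD8 T cells and 582 of the Ifnar1-SA ones, where 143 more carried Y-linked UMIs without Xist. In WT 1 CD8 T cell carried Y-linked UMIs without Xist. The remaining CD8 T cells of each library had both kinds or neither and are left out where cells are split by these transcripts. Genotype, animal and library cannot be told apart in this design, so "higher" and "lower" describe these 2 libraries. Each log2 ratio below is Ifnar1-SA over WT unless said otherwise, with a 95% interval that covers counting error only.

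Among the 10 genes, Tox stood apart in CD8 T cells and no other gene that reached 20 CPM differed by 1.5-fold or more in any of the 3 gates. UMIs were summed per gate and library and scaled to CPM, the count divided by all UMIs of that gate and library and put on 1 common total, and a gene was counted when its mean over the libraries reached 20 CPM. In CD8 T cells 9 genes reached it, 0 were 1.5-fold or more higher in Ifnar1-SA and 1, Tox, was lower. Over the 5183 genes of that gate the same rule gave 5.61% higher and 2.26% lower. In Treg 8 genes reached the minimum and 0 were past 1.5-fold in either direction, beside 3.92% of all genes higher and 1.81% lower. Other T cells also had 8 such genes and 0 past 1.5-fold, beside 5.25% higher and 3.08% lower. Eomes was under the minimum in all 3 gates and Tbx21 in Treg and other T cells. The median log2 ratio of the counted genes was -0.07 in CD8 T cells, -0.07 in Treg and -0.21 in other T cells, against 0.02, -0.01 and -0.02 over all genes.

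**Figure D1:**
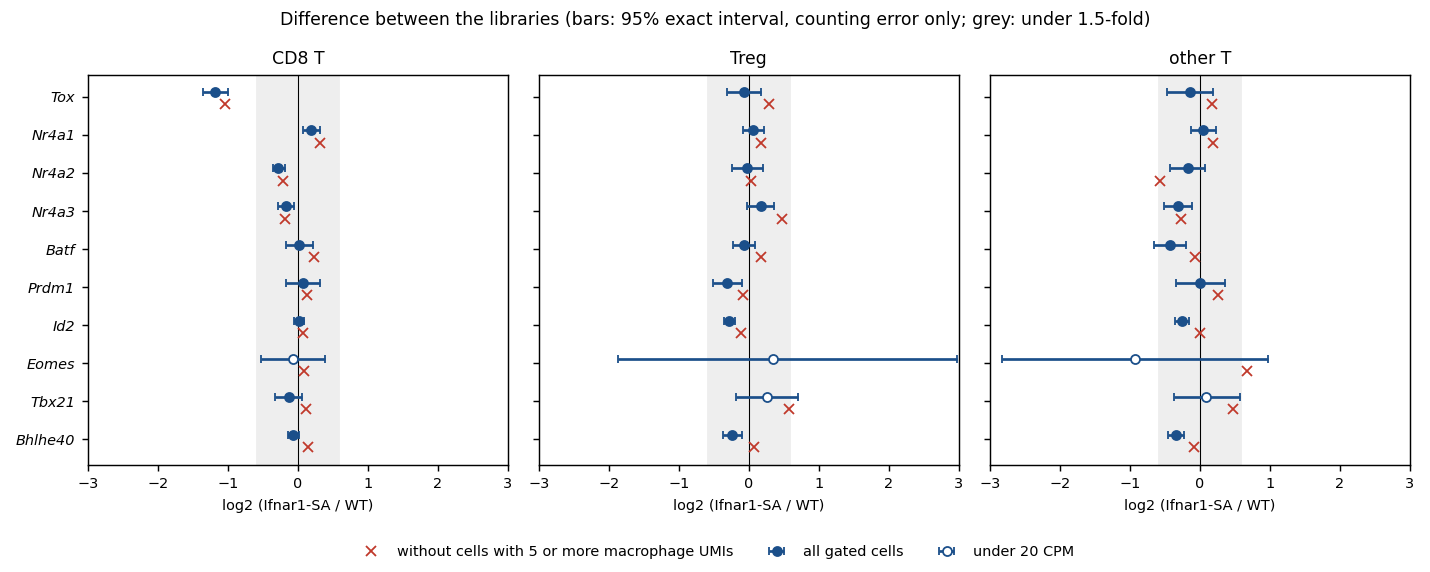
Log2 ratio of Ifnar1-SA over WT (horizontal axis) for each gene in CD8 T, Treg and other T cells, with filled circles for genes at 20 CPM or more, open circles for genes below it, bars for the 95% counting interval and crosses for the ratio without cells that carry 5 or more macrophage marker UMIs. Tox in CD8 T cells, at -1.18, is the filled circle outside the grey band of 1.5-fold.

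Tox (ENSMUSG00000041272, chromosome 4 of GRCm38 in GENCODE M21, protein-coding like the other 9, 6686353 to 6991557, minus strand) gave 1124 UMIs in WT and 361 in Ifnar1-SA CD8 T cells, or 105 and 46.4 CPM. The ratio was -1.18 (-1.35 to -1.0), a level 2.26-fold higher in WT. In Treg, Tox stood at 48.5 and 46.1 CPM, with a ratio of -0.07 (-0.31 to 0.17). Other T cells had 36.1 and 32.7 CPM, with a ratio of -0.14 (-0.47 to 0.19). The WT CD8 T cells were thus the one gate and library with a high Tox level, and the other 5 gate and library pairs lay between 32.7 and 48.5 CPM. Monocytes and macrophages, gated as cells with no T cell marker UMI, had 6 Tox UMIs in WT and 5 in Ifnar1-SA, and cells gated on Fscn1, Ccr7 and Ccl22 had 0. Gm11802, annotated antisense to Tox, had 1 and 2 UMIs in CD8 T cells, and the sources used here do not state whether counting used strand.

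Set within each library, and leaving out the cells that met both rules, Tox was 106 CPM in WT CD8 T cells and 44.7 in WT Treg, a log2 ratio of CD8 T over Treg of 1.25 (1.03 to 1.47). In Ifnar1-SA the levels were 47.3 and 47.0 CPM, a ratio of 0.01 (-0.22 to 0.23). CD8 T cells were above Treg for Tox in the first library and level with them in the second. Without the cells that carry macrophage UMIs, the CD8 T over Treg ratio was 1.10 (0.84 to 1.37) in WT and -0.32 (-0.60 to -0.03) in Ifnar1-SA. That restriction also moved Tox in Treg to 0.29 between the libraries, so its sign there depends on those cells, while in CD8 T cells the ratio between the libraries was -1.04.

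Before thinning, the Tox difference lay in the share of CD8 T cells with a Tox UMI and in the number of UMIs in them, at means of 2.12 and 1.58. At equal depth it was seen in the share, and too few UMIs per cell were left to compare the number. The Tox UMIs at equal depth are given below by state. With each cell thinned to 2000 UMIs, Tox was found in 21.1% of 1068 WT cells (18.7 to 23.6%, exact Clopper-Pearson) and 9.30% of 817 Ifnar1-SA cells (7.40 to 11.5%). In monocytes and macrophages, at medians of 10988 and 9176 UMIs, the thinned shares were 0.0808% and 0.127%. Unthinned, 45.9% and 25.8% of CD8 T cells had a Tox UMI. In WT 22.6% of CD8 T cells had 1 Tox UMI, 19.5% had 2 to 4 and 3.81% (44 cells) had 5 or more. In Ifnar1-SA these shares were 16.3%, 8.95% and 0.566%, the last being 5 cells. The 5 cells with most Tox UMIs held 4.18% of WT and 6.93% of Ifnar1-SA Tox UMIs, so no few cells carried the level.

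By CPM, Tox was lower in Ifnar1-SA in each state of CD8 T cells with at least 50 cells per library. In cells with a UMI of Pdcd1, the PD-1 gene, Tox was 112 CPM in WT and 46.3 in Ifnar1-SA (-1.27, -1.47 to -1.08). In cells without one it was 69.0 and 46.5 CPM (-0.57, -0.98 to -0.16). Tox therefore followed Pdcd1 detection within WT, at 0.70 (0.43 to 0.98) for Pdcd1 detected over not, and showed no such order within Ifnar1-SA, at -0.01 (-0.36 to 0.36). Cells with UMIs of Havcr2, the TIM-3 gene of terminally exhausted cells, but none of Tcf7, which marks their stem-like precursors, had 104 and 37.1 CPM (-1.49, -1.74 to -1.25). Cells with neither gene had 116 and 68.9 CPM (-0.75, -1.02 to -0.48). The 51 WT and 50 Ifnar1-SA cells with Tcf7 only had 69.2 and 36.1 CPM, from 31 and 13 UMIs, and the interval of their ratio, -2.0 to 0.04, reached past 0. Cycling cells, with at least 3 UMIs of mitotic genes, had 106 and 35.1 CPM (-1.60, -1.91 to -1.30), and cells that were not cycling 103 and 53.5 (-0.95, -1.17 to -0.73).

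States set from 1 or a few UMIs follow depth, and cycling cells had medians of 13296 and 12391 UMIs against 5086 and 5299 in the rest. With the states as above and each cell then thinned to 2000 UMIs, Tox was found in 23.4% of WT (20.6 to 26.4%) and 7.71% of Ifnar1-SA cells (5.65 to 10.2%) with Pdcd1. In cells without it the shares were 12.2% (8.21 to 17.3%) and 13% (9.07 to 17.9%), so there the share was not lower in Ifnar1-SA. Cycling cells had 22% and 7.65%, and the others 20.6% and 9.82%. With states set after thinning, the shares were 24.0% and 9.23% with Pdcd1 and 18% and 9.36% without. With Pdcd1 there were then 168 Tox UMIs in 131 WT cells and 37 in 31 Ifnar1-SA cells. Without it there were 118 in 94 and 56 in 45. Most positive cells thus held 1 Tox UMI at this depth, so the number per positive cell cannot show a difference between the libraries here. Among cycling cells the shares were then 27.4% (21.3 to 34.1%) and 8.75% (3.59 to 17.2%), and among the others 19.6% and 9.36%. The second way changes the cells called as well as their depth, from 197 to 80 cycling cells in Ifnar1-SA, and the part of depth in the order of states was not tested. Tcf7 only cells called after thinning had a Tox UMI in 2 of 21 in WT and 0 of 18 in Ifnar1-SA. Cycling cells made up 31.1% of WT and 22.3% of Ifnar1-SA CD8 T cells, and Mki67, a proliferation marker, was 88.6 and 52.3 CPM. Without cycling cells the Tox ratio was -0.95, and with the Tcf7 and Havcr2 states weighted equally it was -1.26.

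Cells with different sex-linked transcripts differed in Tox within the Ifnar1-SA library. Cells with Xist only had 105 CPM in WT and 42.2 in Ifnar1-SA, a ratio of -1.31 (-1.52 to -1.10). The 143 Ifnar1-SA CD8 T cells with Y-linked UMIs only had 72.4 CPM, from 64 UMIs, above the Xist-only cells of their own library by 0.78 (0.35 to 1.18) and below WT by -0.53 (-0.92 to -0.17). With them alone in place of the whole Ifnar1-SA gate, Tox was lower by less than 1.5-fold and 0 genes were past that limit. The share over all genes is not given for that setting. The median depth was 4337 UMIs in the Y-linked cells and 6508 in the Xist-only cells of that library. The part of animal, sex or genotype in the Tox difference was not tested.

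**Figure D2:**
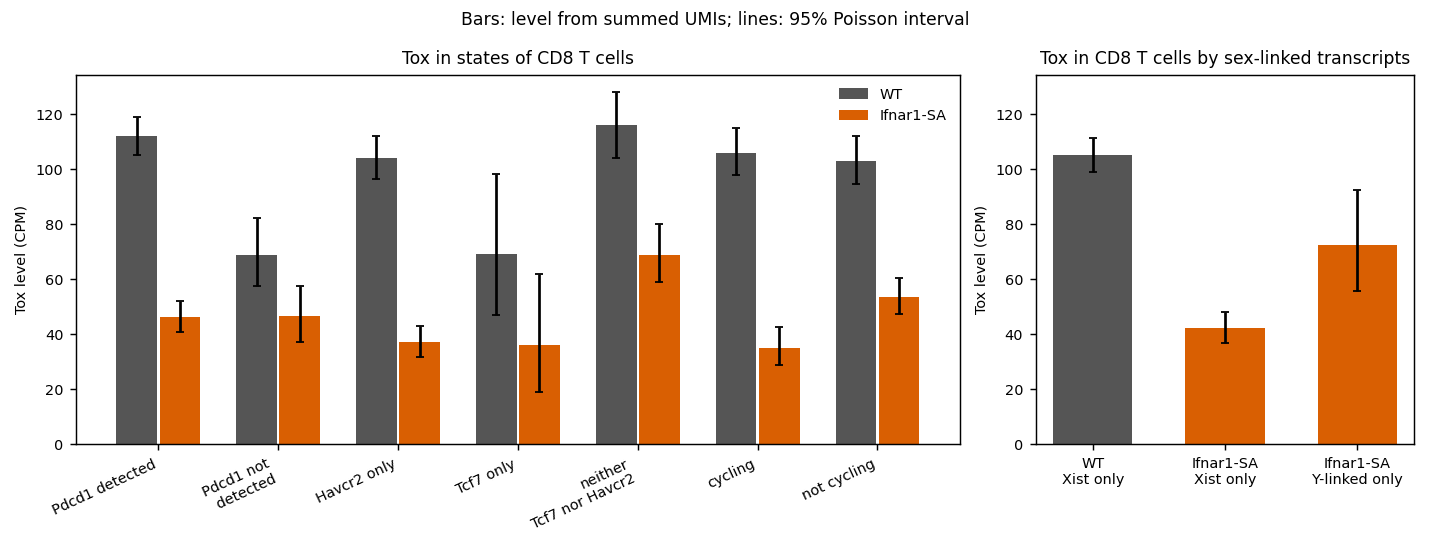
Tox level in CPM (vertical axis, from 0) in states of CD8 T cells in WT (grey) and Ifnar1-SA (orange), and, at right, in CD8 T cells split by sex-linked transcripts, with lines for the 95% Poisson interval. Every Ifnar1-SA bar is below its WT bar, and the Y-linked Ifnar1-SA cells, at 72.4 CPM, lie between the Xist-only cells of the libraries at 42.2 and 105.

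The NR4A receptors come next in order of role, since T cell receptor signals induce them. Their promoters are shown because the genes are known targets of CREB, which binds the cyclic AMP response element (CRE), and because their UMIs fell in the same cells. The sequences are the 250 bases before each start in RefSeq (GRCm38.p6), 5′ to 3′ on the gene's strand. RefSeq and GENCODE starts differ for Nr4a1 and Nr4a3. By the GENCODE spans given below, the Nr4a1 stretch lies inside the gene and part of the Nr4a3 stretch does too. Capitals mark the CRE half-site TGACG and its reverse complement CGTCA. Nr4a1 is shown from chr15:101266596-101266845 on the plus strand, Nr4a2 from chr2:57124004-57124253 on the minus strand and Nr4a3 from chr4:48045055-48045304 on the plus strand.
Nr4a1: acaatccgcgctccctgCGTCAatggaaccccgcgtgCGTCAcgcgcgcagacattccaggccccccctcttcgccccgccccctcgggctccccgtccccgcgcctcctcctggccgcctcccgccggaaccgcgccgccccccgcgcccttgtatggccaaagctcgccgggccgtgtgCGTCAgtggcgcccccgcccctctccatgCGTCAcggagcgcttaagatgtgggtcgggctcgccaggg
Nr4a2: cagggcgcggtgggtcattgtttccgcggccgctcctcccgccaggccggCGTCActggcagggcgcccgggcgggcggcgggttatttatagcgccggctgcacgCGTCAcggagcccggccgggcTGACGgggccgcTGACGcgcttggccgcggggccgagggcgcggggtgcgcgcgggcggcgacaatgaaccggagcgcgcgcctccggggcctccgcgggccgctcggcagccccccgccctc
Nr4a3: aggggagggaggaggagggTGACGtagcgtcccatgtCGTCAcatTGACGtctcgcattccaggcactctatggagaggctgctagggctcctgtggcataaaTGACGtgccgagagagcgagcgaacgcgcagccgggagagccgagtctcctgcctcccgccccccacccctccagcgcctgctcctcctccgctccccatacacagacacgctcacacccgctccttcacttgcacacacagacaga

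Each of these stretches held 4 half-sites. Counted from the start, with the base before it as -1, the half-sites begin at -233, -213, -69 and -40 in Nr4a1, at -200, -144, -123 and -111 in Nr4a2, and at -231, -213, -205 and -147 in Nr4a3. Of 32851 promoters in the table, 17.8% held at least 1 half-site in the same 250 bases and 45 (0.137%) held at least 4. RefSeq promoters were matched for 8 of the 10 genes, all but Tox and Bhlhe40. Outside the NR4A genes, Batf and Prdm1 had 1 half-site each, and Id2, Eomes and Tbx21 had 0. The full element TGACGTCA was in 0 of the 8 promoters, searched from 250 bases before to 50 after the start, against 1.79% of all promoters. The AP-1 motif TGANTCA was found in Prdm1 alone (7.81% of promoters), the interferon-stimulated response element (GAAA, any 2 bases, GAAA) in Eomes alone (3.44%), and the E-box CACGTG (7.15%) and T-box AGGTGTGA (1.28%) in 0 of 8. Both strands were searched, half-sites lie inside the full element, and a match describes letters only.

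Nr4a2 (chromosome 2, 57106830 to 57124003, minus strand) differed most between gates among the NR4A genes. It had 264 CPM in WT and 218 in Ifnar1-SA CD8 T cells, a ratio of -0.28 (-0.36 to -0.19). Treg had 55.6 and 54.8 CPM and other T cells 61.7 and 54.8, close to the 51.7 and 50.1 CPM of monocytes and macrophages. Without the cells that met both the CD8 T and the Treg rule, Nr4a2 was 273 CPM in CD8 T cells and 52.8 in Treg of WT. In Ifnar1-SA these levels were 227 and 44.5 CPM. Within each library CD8 T cells were then above Treg by nearly the same log2 ratio, 2.37 (2.18 to 2.57) in WT and 2.35 (2.17 to 2.53) in Ifnar1-SA. With those cells left out, the distance between these gates was close in both libraries for Nr4a2, and was not for Tox.

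Nr4a3 (chromosome 4, 48045153 to 48086447, plus strand) was also highest in CD8 T cells, at 142 and 126 CPM (-0.17, -0.29 to -0.06), with 72.4 and 81.4 in Treg (0.17, -0.02 to 0.36) and 99.5 and 80.4 in other T cells (-0.31, -0.51 to -0.11). The CD8 T over Treg ratio, without the cells that met both rules, was 1.01 in WT and 0.71 in Ifnar1-SA. Among CD8 T cells, the cycling ones had 141 CPM in WT and 97.4 in Ifnar1-SA (-0.53, -0.73 to -0.34), while those not cycling had 143 and 144 (0.01, -0.14 to 0.16). In these cells thinned to 2000 UMIs, an Nr4a3 UMI was found in 24.8% of WT cycling cells (20.4 to 29.6%) and 13.8% of Ifnar1-SA ones (9.28 to 19.4%), and in 20.2% and 20.5% of the others. With cycling called after thinning, in 201 and 80 cells, the shares were 25.9% (20 to 32.5%) and 12.5% (6.16 to 21.8%). Cycling cells of Ifnar1-SA were lower in Nr4a3 by each measure, with intervals that overlapped in the last.

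Nr4a1 (chromosome 15, 101254269 to 101274795, plus strand; Nur77, the member most used as a reporter of receptor signalling) did not separate the T cell gates. Its levels were 107 and 122 CPM in CD8 T cells (0.19, 0.07 to 0.32), 118 and 123 in Treg (0.06, -0.09 to 0.21) and 122 and 127 in other T cells (0.05, -0.12 to 0.23). Monocytes and macrophages had 71.2 and 65.6 CPM, so no gate here lacks the gene and can serve as background for its share of cells. In CD8 T cells without Pdcd1, Nr4a1 was 94.0 CPM in WT and 137 in Ifnar1-SA (0.55, 0.26 to 0.84), and in cells with Pdcd1 it was 109 and 117 (0.10, -0.04 to 0.24). Thinned to 2000 UMIs, the cells without Pdcd1 had Nr4a1 shares of 14.9% (10.5 to 20.3%) and 23.6% (18.4 to 29.4%), and 17.8% and 20.2% where Pdcd1 was called after thinning. In Tcf7 only cells Nr4a1 was 75.9 and 181 CPM, from 34 and 65 UMIs, of which 5 cells of each library held 55.9% and 53.8%.

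NR4A transcripts were found together in single CD8 T cells. At 2000 UMIs per cell, 31.0% of the 232 WT cells with Nr4a3 also had Nr4a1, against 15.6% of cells without Nr4a3. In Ifnar1-SA these shares were 30.5% of 154 cells and 18.6%. Nr4a2 was found in 54.3% of WT cells with Nr4a3 and 29.8% without, and in 44.8% and 26.8% in Ifnar1-SA. Bhlhe40 was found in 55.2% of cells with Nr4a3 in each library, and in 41.1% and 41.3% of cells without. Tbx21 followed the same order, with 15.5% against 9.33% in WT and 21.4% against 9.80% in Ifnar1-SA. For Tox the order differed in size: 22.8% of WT cells with Nr4a3 had Tox against 20.6% without, and in Ifnar1-SA 18.2% against 7.24%. Batf and Id2 were no more frequent in cells with Nr4a3 in either library, at 7.76% against 9.69% in WT for Batf and 47.8% against 48.6% for Id2, and 10.4% against 12.2% and 47.4% against 51.3% in Ifnar1-SA.

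Bhlhe40 (ENSMUSG00000030103, chromosome 6, 108660629 to 108666925, plus strand) was higher in CD8 T cells and other T cells than in Treg of both libraries. It had 307 and 294 CPM in CD8 T cells (-0.07, -0.14 to 0.01), 273 and 216 in other T cells (-0.34, -0.46 to -0.22) and 160.2 and 136 in Treg (-0.24, -0.37 to -0.10). Without cells carrying macrophage UMIs the ratios in Treg and other T cells were 0.07 and -0.08. Bhlhe40 was 32.6 and 28.7 CPM in monocytes and macrophages. It followed Pdcd1 in both libraries, at 0.50 (0.35 to 0.66) for Pdcd1 detected over not in WT and 0.82 (0.66 to 0.99) in Ifnar1-SA. At 2000 UMIs it was found in 49.4% of WT cells with Pdcd1 and 38.8% without, and in 56.2% and 35.3% in Ifnar1-SA, so this order held at equal depth.

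Both T-box genes were highest in CD8 T cells of each library, and neither differed by 1.5-fold between the libraries there. Tbx21 (ENSMUSG00000001444, chromosome 11, 97098071 to 97115331, minus strand) had 53.8 and 49.3 CPM in CD8 T cells (-0.13, -0.32 to 0.06), 14.0 and 16.7 in Treg (0.26, -0.18 to 0.70) and 16.6 and 17.7 in other T cells. At 2000 UMIs, 10.7% of WT and 12% of Ifnar1-SA CD8 T cells had a Tbx21 UMI, beside 0.0808% and 0.0637% of monocytes and macrophages. Tbx21 was higher with Pdcd1 than without by 0.62 (0.25 to 1.01) in WT and 0.78 (0.37 to 1.20) in Ifnar1-SA. Eomes (ENSMUSG00000032446, chromosome 9, 118478212 to 118486132, plus strand) was rare, with 104 and 72 UMIs, or 9.70 and 9.25 CPM, in CD8 T cells (-0.07, -0.52 to 0.38), in 2.43% and 2.08% of cells at 2000 UMIs. Treg had 3 and 6 Eomes UMIs and other T cells 6 in each library. Without the cells that also met the CD8 T rule, Treg had 1 and 0. In Tcf7 only cells Eomes reached 22.3 CPM in WT and 16.7 in Ifnar1-SA, from 10 and 6 UMIs, against 9.75 and 7.08 CPM in Havcr2 only cells. Havcr2 only over Tcf7 only was -1.20 (-2.17 to -0.07) in WT and -1.24 (-2.51 to 0.31) in Ifnar1-SA, where the interval included 0. With states called after thinning, Eomes was in 0 of 21 and 0 of 18 Tcf7 only cells. Havcr2 only cells had 3.19% and 1.48%, so these few cells cannot show the order at equal depth.

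**Figure D3:**
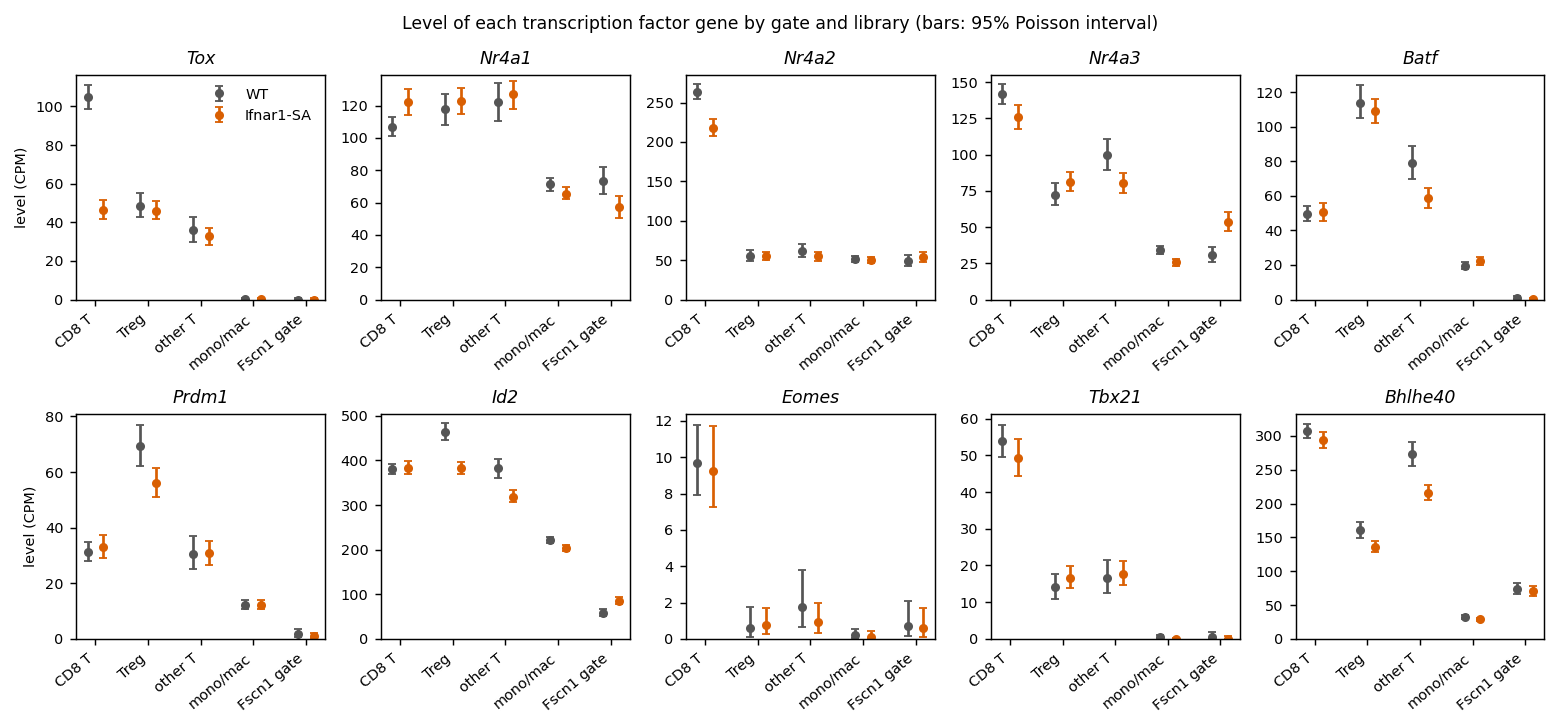
Level of each gene in CPM (vertical axis, each panel from 0) in CD8 T, Treg, other T, monocyte/macrophage and Fscn1, Ccr7 and Ccl22 gated cells (Fscn1 gate), in WT (grey) and Ifnar1-SA (orange), with bars for the 95% Poisson interval. Levels are to be compared within a panel: Nr4a2 and Tbx21 are highest in CD8 T cells of both libraries, Batf and Prdm1 in Treg, and Tox in CD8 T cells of WT alone.

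Batf and Prdm1 were highest in Treg of both libraries. Batf (chromosome 12, 85686669 to 85709087, plus strand) was 114 and 109 CPM in Treg (-0.07, -0.22 to 0.09) and 49.6 and 50.5 in CD8 T cells (0.02, -0.17 to 0.22). Its CD8 T over Treg ratio, without the cells that met both rules, was -1.30 in WT and -1.24 in Ifnar1-SA. In other T cells it was 78.8 and 58.6 CPM (-0.43, -0.66 to -0.20), and -0.07 without cells carrying macrophage UMIs. Prdm1 (chromosome 10, 44437177 to 44528501, minus strand) was 69.4 and 56.1 CPM in Treg (-0.31, -0.51 to -0.10; -0.09 without those cells), 31.3 and 32.9 in CD8 T cells and 30.5 and 30.7 in other T cells. Treg exceeded other T cells in Prdm1 by 1.18 (0.86 to 1.51) in WT and 0.87 (0.63 to 1.12) in Ifnar1-SA. Within CD8 T cells Prdm1 was 37.5 and 39.2 CPM with Havcr2 only and 20.7 and 28.0 with neither marker, and Tcf7 only cells had 6 and 1 UMIs in all. Blimp-1 is known to rise with terminal differentiation, which Havcr2 also marks. The part of differentiation in the Prdm1 order was not tested. Median depth was 8019 and 7894 UMIs with Havcr2 only and 5390 and 4885 with neither. With the states as above and each cell then thinned, Prdm1 shares were 8.04% against 3.63% in WT and 5.68% against 6.18% in Ifnar1-SA. With states called after thinning, they were 9.16% against 5.16% and 6.90% against 5.07%, with intervals that overlapped in each library. At equal depth the order was thus not clear in Ifnar1-SA.

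Id2 (chromosome 12, 25093799 to 25097140, minus strand) was close in CD8 T cells of both libraries, at 381 and 384 CPM (0.01, -0.06 to 0.08) and in 48.4% and 50.6% of cells at 2000 UMIs. In Treg it was 464 and 382 CPM (-0.28, -0.36 to -0.20) and in other T cells 382 and 319 (-0.26, -0.36 to -0.16). Without cells carrying macrophage UMIs those ratios were -0.11 and -0.003, and monocytes and macrophages had 222 and 204 CPM of their own. Tcf7 only CD8 T cells had 221 and 214 CPM of Id2 and Havcr2 only cells 397 and 409.9. By CPM, Id2 was lower with Tcf7 only by 0.85 (0.56 to 1.15) in WT and 0.94 (0.61 to 1.29) in Ifnar1-SA. With states called after thinning to 2000 UMIs, Id2 was in 5 of 21 WT Tcf7 only cells (8.22 to 47.2%). Havcr2 only cells of WT had a share of 57.0% (50.6 to 63.2%). In Ifnar1-SA it was in 8 of 18 (21.5 to 69.2%) and 58.1% (51.0 to 65.0%), with intervals that overlapped. Without the cells that met both rules, Treg and CD8 T cells differed for Id2 in WT, at -0.30 (-0.38 to -0.22) for CD8 T over Treg. They were level in Ifnar1-SA, at 0.0047 (-0.07 to 0.08). With cells carrying macrophage UMIs also left out, CD8 T cells were below Treg in both libraries, at -0.46 (-0.56 to -0.36) in WT and -0.32 (-0.42 to -0.21) in Ifnar1-SA.

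Over a panel of 9 gates and states in both libraries (18 points), the genes fell into patterns that follow cell type. The closest pairs by Pearson's r of log2(CPM + 10) were Nr4a3 with Bhlhe40 at 0.92, Tbx21 with Tox, Nr4a3 and Bhlhe40 at 0.90 each and Batf with Id2 at 0.89. Tox with Nr4a3, Tox with Bhlhe40 and Prdm1 with Id2 followed at 0.88 each. Prdm1 and Eomes had the lowest value, -0.21. The panel includes the Fscn1, Ccr7 and Ccl22 gate, and over the 16 points without it Batf with Id2 was 0.66, Tox with Tbx21 0.86 and Prdm1 with Eomes -0.49. Points of one library share depth and free RNA, and states of one gate share cells of one source, so r is a description. Of 5250 other genes, those most like Tox were Sla2 (0.972), Inpp4b (0.967) and Ikzf3 (0.967). Tbx21 was most like Nkg7 (0.978), Rgs16 (0.977) and Pdcd1 (0.969), and Bhlhe40 most like Stat4 (0.967), Suco (0.961) and Mir155hg (0.959). For Nr4a2 they were Bend4, Cd160 and Slc17a6, for Nr4a3 Nabp1, Suco and Vps37b, and for Nr4a1 Peak1, Kmt2e and Clint1. Batf was nearest to Mbd2, Rilpl2 and Galnt6, Prdm1 to Rap1a, Nucb1 and Anxa11, Id2 to Itsn2, Arf6 and Unc13d, and Eomes to Dnajc15, Slc17a6 and Cd160.

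**Figure D4:**
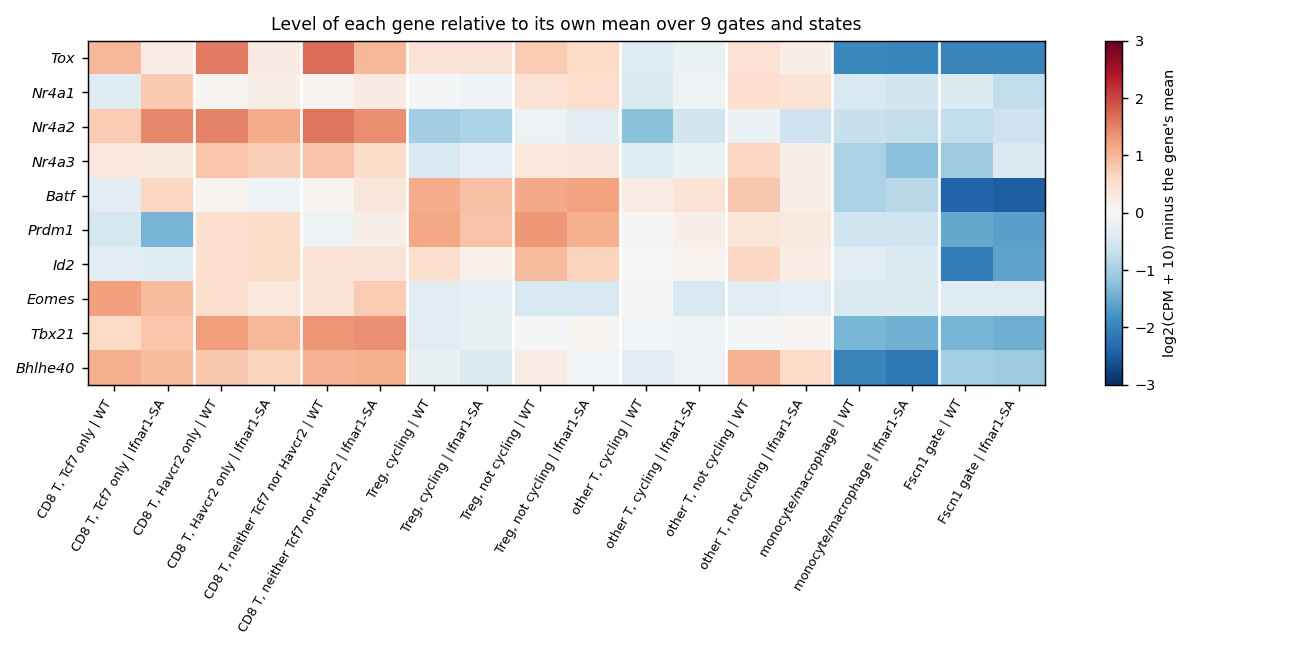
Level of each gene, as log2(CPM + 10) minus the gene's own mean, over 9 gates and states (columns, WT then Ifnar1-SA within each pair), with red above and blue below the mean. Tox is red in the WT CD8 T states and paler in the Ifnar1-SA ones, Batf and Prdm1 are red in Treg, and all 10 genes are below their mean in monocytes and macrophages and in the Fscn1 gate.

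The wider programmes around these factors were read from lists in CD8 T cells. Over all genes of this gate 5.61% were 1.5-fold or more higher and 2.26% lower, with a median of 0.02. Counts without cells carrying macrophage UMIs, here and below, have no share over all genes beside them. The median over all genes in CD8 T cells was then 0.01. Of 19 other T cell transcription factor genes at 20 CPM, 3 were 1.5-fold or more higher in Ifnar1-SA and 0 lower, with a median of 0.06. Maf, a factor tied to IL-10 and exhaustion programmes, was 61.2 and 136 CPM (1.16), Zeb2, a partner of T-bet in terminal effectors, 123 and 223 (0.86), and Rel, an NF-kappaB subunit, 156 and 236 (0.60). Runx3, which supports the CD8 lineage, was 223 and 149.9 CPM (-0.57). Maf and Zeb2 are also macrophage genes, and without cells carrying macrophage UMIs they were 22.6 and 53.0 CPM (1.23) and 84.5 and 151 (0.83). The list then had 4 of 19 higher, with Irf4, and 1 lower, Ikzf2, and a median of 0.22. Foxp3 was 8.40 and 15.2 CPM in this gate.

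Naive, stem and memory genes had 7 members at 20 CPM, of which 2 were 1.5-fold or more higher (Myb, 0.59, and Klf2, 0.59) and 0 lower, with a median of 0.53. With macrophage-marked cells left out, 4 of 8 were higher (Slamf6, Ccr7, Bach2 and Myb, the last at 0.95), Klf2 was 0.41, and the median was 0.60. Tcf7 itself was under the minimum, at 9.05 and 13.4 CPM. Inhibitory receptors had 9 members at 20 CPM with 0 higher and 2 lower, Cd244a at 33.9 and 15.9 CPM (-1.09) and Cd38 at 29.9 and 14.6 (-1.03), both receptors of exhausted cells. Cd200 was 25.7 and 34.2 CPM (0.41) and Cd160 89.4 and 117 (0.39), so the list moved both ways with a median of -0.09. Leaving out macrophage-marked cells, 2 were higher, Cd160 and Cd200, and 3 lower, Entpd1, Cd244a and Cd38, with a median of 0.11. Pdcd1 was 389 and 301 CPM (-0.37) and Havcr2 132 and 152 (0.21). Effector genes had 13 members with 3 higher and 1 lower: Ifng, which T-bet drives, was 254 and 681 CPM (1.42), the chemokines Ccl3 275 and 667 (1.28) and Ccl4 1086 and 1969 (0.86), and Gzmk 44.7 and 19.3 (-1.21). With macrophage-marked cells left out, 5 of 14 were higher and 1 lower, and the median was 0.20 in place of -0.04. Tbx21 and Eomes, the latter under 20 CPM, differed by less than 1.5-fold in this gate, and a link to these effector genes was not tested.

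Immediate early genes, which like the NR4A genes answer receptor signals and also tissue dissociation, had 17 members at 20 CPM, 8 of them higher and 0 lower, with a median of 0.36. Fos was 195 and 368 CPM (0.92), Atf3 64.8 and 120.3 (0.89) and Jun 61.7 and 110.4 (0.84). Without cells carrying macrophage UMIs 3 of 16 were higher, Fos, Atf3 and Nfkbid, and the median was 0.34. Levels were then lower in both libraries, with Fos at 30.3 and 52.3 CPM (0.79) and Atf3 at 14.1 and 33.9 (1.26). Jun was 35.3 and 42.6 CPM, at 0.27 (-0.02 to 0.56), an interval that included 0. The NR4A genes, at 0.19, -0.28 and -0.17, were not among those past 1.5-fold. In Treg the same list had 1 of 17 higher and 1 lower. The 10 effector Treg genes at 20 CPM had 1 higher, Il10 (24.9 and 45.2 CPM, 0.86), and 0 lower, with a median of -0.06. Over all genes in Treg 3.92% were higher and 1.81% lower, with a median of -0.01. Effector genes in Treg had 4 of 12 higher and 1 lower, among them Ifng at 12.9 and 118 CPM (3.19). These values include the 31 WT and 45 Ifnar1-SA cells that also met the CD8 T rule. Ifng was 254 and 681 CPM in the CD8 T gate, and the part of the shared cells in its Treg ratio was not tested. Without Treg that carry macrophage UMIs, the immediate early genes had 0 of 15 higher and 5 lower (Fos, Jun, Egr1, Ier2 and Klf4), with a median of -0.17 against 0.16 with them. The effector Treg genes then had 1 of 13 higher, Il10, and 1 lower, Il1rl1, and the effector genes 6 of 10 higher and 0 lower. The median of the immediate early list in Treg thus changed sign with those cells. The shares of 3.92% and 1.81% are for the full Treg gate, and none is given without those cells.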

How the data were processed

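Raw UMI counts per gene and barcode were deposited. The file headers name Cell Ranger 4 as the authors' counting software, and the submitters' processing notes name mm10. The sources used here state neither the annotation release nor the strand setting. A barcode was kept if it had 1000 or more UMIs, 500 or more genes and no more than 10% mitochondrial UMIs. No doublet caller was run, and T cells with 5 or more macrophage marker UMIs were left out as an alternative. UMIs were summed per gate and library and scaled to CPM. Log2 ratios have exact conditional binomial 95% intervals, levels exact Poisson and shares exact Clopper-Pearson ones, all for counting error only. With 1 library per genotype there is no spread to test against, and p-values are left out. The computation, in Python 3.11.15 with numpy 2.4.6 and scipy 1.17.1, was tested on simulated data, and plots used matplotlib 3.10.9.

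The genes, gates, lists and alternatives were chosen with earlier results of these data known. All 10 genes were named in every gate. From each list at most the 4 genes with the largest log2 ratio among those with a mean of 20 CPM were named, plus Pdcd1, Havcr2, Tcf7, Foxp3 and Mki67, and for likeness the 3 genes with the highest r. Nfkbid, Cd4, the cell type markers and the list genes given without macrophage-marked cells were named outside that rule, after their values were seen. A gate on Fscn1, Ccr7 and Ccl22 is called by its genes. NK and dendritic gates had under 50 cells and were not reported. Coordinates come from GENCODE M21 (GRCm38) and promoters from RefSeq (GRCm38.p6).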

Additional observations from a re-analysis of the deposited data

How the results depend on the processing

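Each ratio was recomputed under up to 15 alternatives, of which 2 were added after seeing the data: CD8 T cells without Foxp3, cycling or macrophage UMIs, and Treg without Cd8 or macrophage UMIs. Tox in CD8 T cells was negative in 15 of 15 and past 1.5-fold in 14, from -1.31 with Xist only to -0.53 with Y-linked Ifnar1-SA cells against all WT cells, where the count of lower genes fell from 1 to 0. Its value was -0.92 as a mean over cells and -0.87 in the added setting. The sign held in all alternatives for 2 of 10 genes in CD8 T cells (Tox and Nr4a1), 0 in Treg and 4 in other T cells (Nr4a2, Nr4a3, Batf and Bhlhe40). In Treg, 1 gene was higher without macrophage UMIs (Tbx21, 0.58) and 1 lower at 2000 UMIs per cell (also Tbx21, -1.05). The direction of Tbx21 in Treg thus depended on the setting. With the 28 Y-linked Treg 1 gene was higher (Batf, from 52 UMIs in these cells) and 2 lower (Nr4a1, from 13, and Nr4a2, from 7). In other T cells, 2 genes were lower at 2000 UMIs, 1 as a mean over cells, 1 without cycling cells and 1 with no filter on low values (Eomes), and with the 44 Y-linked cells 1 was higher and 1 lower. The cause was not tested. Counts under the alternatives have no share over all genes beside them, so they are not set against a background. No paired analysis was possible because each genotype is 1 library. Depth limits Eomes, and Tbx21 outside CD8 T cells, to few UMIs.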

Other observations

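Cells with no T cell marker UMI, under 5 of the macrophage markers C1qa to C1qc and Csf1r and at least 5 of Fscn1, Ccr7 and Ccl22 numbered 92 in WT and 115 in Ifnar1-SA, at medians of 44314 and 45043 UMIs. They belong to none of the T cell comparisons. Their fibroblast markers summed to 2906 and 1940 CPM, above the 356 and 466 of the 3 genes that gated them, and Ptprc, the pan-leukocyte CD45 gene, was 10.3 and 12.2 CPM, so the gate is given no cell type name. Nr4a3 was 30.7 CPM in WT and 53.5 in Ifnar1-SA there (0.80, 0.50 to 1.12) and Id2 58.9 and 85.9 (0.54, 0.32 to 0.77). Nr4a1 was 73.5 and 57.0 CPM (-0.37, -0.60 to -0.13), Nr4a2 49.1 and 53.7 (0.13, -0.14 to 0.40) and Bhlhe40 74.0 and 70.2 (-0.08, -0.30 to 0.15). Tox had 0 UMIs in either library and Batf 3 and 1. In monocytes and macrophages 6 of the 10 genes reached 20 CPM and 0 differed by 1.5-fold, with a median of -0.12 against 0.06 over all genes. The share of all genes past 1.5-fold is not given for that gate.

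Within the Ifnar1-SA CD8 T cells, Tox was not the one gene that differed with sex-linked transcripts. Cells with Y-linked UMIs only had 499 CPM of Id2 against 352 in Xist-only cells (0.50, 0.35 to 0.65), 152 against 116 of Nr4a1 (0.39, 0.11 to 0.66) and 271 against 213 of Nr4a2 (0.35, 0.14 to 0.55). Bhlhe40 was 344 and 301 CPM (0.19, 0.01 to 0.37), while the intervals of Nr4a3, Batf, Prdm1, Eomes and Tbx21 included 0. These splits have no replicate check.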
